A study of Mus musculus with 2 samples.

Results

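The 10 genes described here encode proteins of the elastic fiber: elastin (*Eln*), the fibrillins (*Fbn1* and *Fbn2*), the fibulins (*Fbln1*, *Fbln2*, *Fbln5* and *Efemp2*, whose product is also called fibulin-4) and the microfibril-associated proteins (*Mfap2*, *Mfap4* and *Mfap5*). They were chosen by name from the 32287 features of single-cell RNA-seq of the mouse thoracic aorta, and each symbol matched 1 feature. Of the 10 genes, 9 passed the filter on low counts for comparisons between cell types. The exception was *Fbn2*, for which 6 transcripts were counted in 11153 cells.

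An elastic fiber consists of a core of cross-linked elastin laid onto a scaffold of microfibrils. Fibrillins polymerize into the microfibrils, and microfibril-associated proteins decorate them. Fibulin-4 and fibulin-5 bring the elastin precursor together with lysyl oxidases, which cross-link it. In the aorta, elastic fibers form the concentric laminae of the media, where smooth muscle cells (SMCs) lie between the laminae, and most elastin is deposited in development and early postnatal growth.

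The tissue came from 2 wild-type mice of C57BL/6J background (1 group, n = 2 aortas, male by the study's methods). The animals carry *Myh11-CreERT2* and the *mT/mG* reporter and are designated GFPiSMC. In them a tamoxifen-dependent Cre driven by the *Myh11* promoter of SMCs changes a membrane-bound tdTomato to GFP, and no other gene is deleted. By the sample labels, tamoxifen (1 mg/d) was given to both on 5 days, beginning at 3 weeks, and the age was 12 weeks when the thoracic aorta was collected. The study's methods give a higher daily dose and a later start for its adult mice. Because both animals belong to the same group and received the same treatment, all comparisons are between cell types or cell subsets within the aortas. The question they address is which cells of the normal aorta express elastic fiber genes, in a study that deleted TGF-β receptors from SMCs and followed matrix transcripts.

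Each aorta was digested in the cold, live single cells were taken by sorting whether or not they carried GFP, and 1 droplet library was made per aorta. The unit is the unique molecular identifier (UMI), which stands for 1 captured RNA molecule. The files held 47009780 UMIs in 8947 cells for aorta 1 and 30919996 UMIs in 6263 cells for aorta 2, and filtering left 6539 and 4614 cells. The libraries had 18 cell barcodes in common. Clustering, with the 10 genes and 41 other genes of elastic fiber assembly left out, gave 30 clusters, 28 of which were named from marker genes. SMCs accounted for 36.7% and 37.8% of cells in aortas 1 and 2, fibroblasts for 22.4% and 21.9%, endothelial cells for 12.0% and 15.8%, mesothelial cells for 4.19% and 3.42%, and immune cells for 23.3% and 20.2%. The names rest on marker genes alone, so each means SMC-like, fibroblast-like and the like, and may differ from the names of the study. The defining marker *Myh11* was at 4627 and 4248 CPM in SMCs and at 119 CPM or less in the other 4 types, and *Dcn*, a fibroblast marker, was at 16237 and 15329 CPM in fibroblasts, 5193 and 6124 CPM in mesothelial cells and 478 CPM or less in the other 3. Here CPM is the count of a gene divided by all UMIs of the cells named, times 1000000, with cells of 1 aorta summed, so levels are relative to the other RNA of the same cells.

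To show the DNA next to which transcription starts, the bases upstream of 4 members are given from RefSeq (GRCm38.p6), 5′ to 3′ on the strand of the gene. Each printed window lies outside the annotated gene, and whether *Eln*, *Fbn2*, *Mfap4* and *Mfap5* have such a window was not examined. The window of *Mfap2* was cut at the start of the annotated gene and holds 244 bases, and each of the others holds 250. All 4 members are among those with high levels in 1 subset of SMCs, described further on. The windows lie at chr15:85205699-85205948 (plus strand) for *Fbln1*, chr12:101819120-101819369 (minus strand) for *Fbln5*, chr19:5473696-5473945 (plus strand) for *Efemp2* and chr4:141010174-141010417 (plus strand) for *Mfap2*. Capitals mark matches to CAGAC, the core of a SMAD binding element, or to GGGCGG, a GC box, each on either strand (GTCTG and CCGCCC).
Fbln1: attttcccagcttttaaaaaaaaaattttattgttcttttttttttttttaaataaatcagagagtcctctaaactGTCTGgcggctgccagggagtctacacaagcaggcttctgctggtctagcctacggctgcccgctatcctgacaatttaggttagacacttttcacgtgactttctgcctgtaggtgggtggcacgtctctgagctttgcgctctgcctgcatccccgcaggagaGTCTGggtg
Fbln5: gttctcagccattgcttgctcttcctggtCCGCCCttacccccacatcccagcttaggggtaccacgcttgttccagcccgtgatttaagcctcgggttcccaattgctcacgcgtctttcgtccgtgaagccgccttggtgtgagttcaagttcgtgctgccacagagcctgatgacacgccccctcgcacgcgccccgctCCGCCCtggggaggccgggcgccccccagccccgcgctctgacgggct
Efemp2: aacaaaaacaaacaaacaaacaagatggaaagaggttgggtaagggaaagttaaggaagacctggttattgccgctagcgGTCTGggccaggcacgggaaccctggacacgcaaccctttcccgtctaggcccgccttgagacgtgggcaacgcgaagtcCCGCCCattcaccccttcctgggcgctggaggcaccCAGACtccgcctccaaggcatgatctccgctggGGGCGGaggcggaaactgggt
Mfap2: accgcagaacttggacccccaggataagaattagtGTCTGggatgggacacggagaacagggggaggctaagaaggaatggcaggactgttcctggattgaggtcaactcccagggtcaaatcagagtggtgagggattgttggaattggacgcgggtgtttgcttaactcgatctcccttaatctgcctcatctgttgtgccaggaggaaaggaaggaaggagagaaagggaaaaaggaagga

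The window of *Fbln1* holds 2 SMAD elements and 0 GC boxes, that of *Fbln5* holds 0 and 2, that of *Efemp2* holds 2 and 2, and that of *Mfap2* holds 1 and 0. A SMAD element occurs in 42.2% of 32851 RefSeq windows of 250 bases and a GC box in 32.7%, and the letters alone do not show binding. The windows of *Fbn1* and *Fbln2* reach into the annotated gene and are not shown, and those of *Eln*, *Fbn2*, *Mfap4* and *Mfap5* were not analysed here.

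In GRCm38 (GENCODE vM21) the members lie on separate chromosomes except for *Fbln2* and *Mfap5*. *Eln* (ENSMUSG00000029675) is at chr5:134702593-134747323 on the minus strand, *Fbn1* (ENSMUSG00000027204) at chr2:125300594-125507993 on the minus strand, and *Fbn2* (ENSMUSG00000024598) on chromosome 18. *Fbln1* (ENSMUSG00000006369) is at chr15:85205949-85286535, *Fbln2* (ENSMUSG00000064080) at chr6:91212455-91272540, *Fbln5* (ENSMUSG00000021186) at chr12:101746565-101819055 and *Efemp2* (ENSMUSG00000024909) at chr19:5473954-5482517. *Mfap2* (ENSMUSG00000060572) is at chr4:141010418-141015984, *Mfap4* (ENSMUSG00000042436) at chr11:61485431-61488900 and *Mfap5* (ENSMUSG00000030116) at chr6:122505845-122529290. *Eln*, *Fbn1*, *Efemp2* and *Mfap4* overlap *Gm30003*, *Gm9913*, *Mus81* and *Mapk7*, respectively, each on the opposite strand. The use of strand in counting was not given in the sources used here, so reads in the overlaps cannot be told apart with certainty.

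Over all cells of a type, elastin was the member for which SMCs had the highest level, and endothelial cells came close to it. *Eln* stood at 3307 CPM in SMCs of aorta 1 and 3157 CPM in those of aorta 2 (mean 3232 ± 106, SD, n = 2). Endothelial cells had 3035 and 2969 CPM, fibroblasts 1557 and 1468 CPM, mesothelial cells 492 and 458 CPM, and immune cells 96.7 and 124 CPM. The aortas did not overlap between any 2 of the 5 types. In the edgeR quasi-likelihood test of summed UMIs, *Eln* was higher in SMCs than in fibroblasts by 1.23 on the log2 scale (SE 0.11, adjusted p = 6.38e-08), and higher in endothelial cells than in fibroblasts by 0.87 (fibroblast minus endothelial -0.87, SE 0.11, adjusted p = 4.67e-06). The small step from endothelial cells to SMCs depended on scaling. It was 0.36 (SE 0.10, adjusted p = 0.00859) with TMM, which assumes that most genes do not differ between types, and 0.11 (adjusted p = 0.410) when sums were scaled to total UMIs. In the latter case the median of all genes lay at -0.18, and *Eln* lay 0.29 above that median. In the endothelial cells with no UMI of 8 SMC markers (124 and 207 cells, median 2897 and 2576 UMIs), *Eln* was at 2406 and 2712 CPM. In the SMCs with no UMI of 8 fibroblast markers (304 and 197 cells) it was at 1840 and 1732 CPM, and these were shallow cells, with medians of 1847 and 2038 UMIs against 7559 and 7391 in all SMCs. These marker-free groups were selected on different markers and are not compared with each other.

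*Fbn1*, which encodes the main fibrillin of the adult microfibril, had its highest level in fibroblasts in both aortas. Its level was 1055 and 1589 CPM in fibroblasts, 198 and 212 CPM in SMCs, 141 and 108 CPM in mesothelial cells, 69.9 and 64.5 CPM in the endothelium, and 11.9 and 25.4 CPM in immune cells. In CPM, though not as a ratio, fibroblasts of the 2 aortas differed more than cells of any other type (SD 377 CPM), yet both lay above all other types. The difference of SMCs from fibroblasts was -2.56 (SE 0.21, adjusted p = 2.91e-08). Each further step down this order also passed the test, and the smallest was that from mesothelial to endothelial cells (endothelial minus mesothelial -0.90, SE 0.26, adjusted p = 0.0131).

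*Fbn2*, the fibrillin most associated with development, was close to the limit of detection. The 6 UMIs were 3 and 2 in fibroblasts of aortas 1 and 2 and 1 in SMCs of aorta 1. None was found in 1515 endothelial cells, which allows a share of cells with a UMI of up to 0.198%, in 2458 immune cells (up to 0.122%) or in 432 mesothelial cells (up to 0.694%). These limits, like the intervals given further on, cover counting error only.

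Among fibulins, *Fbln1* and *Fbln2* were high in cells other than SMCs. *Fbln1*, a component of elastic fibers and basement membranes, had 959 and 1184 CPM in mesothelial cells, 1105 and 997 CPM in fibroblasts, 67.3 and 69.8 CPM in SMCs, 9.72 and 11.1 CPM in the endothelium, and 9.44 and 9.10 CPM in immune cells. Mesothelial cells and fibroblasts overlapped (fibroblast minus mesothelial 0.12, SE 0.10, adjusted p = 0.395), and both were far above SMCs (SMC minus fibroblast -3.81, SE 0.11, adjusted p = 1.55e-13). No difference was called between endothelial and immune cells either (-0.04, SE 0.21, adjusted p = 0.887). In the SMCs without a UMI of fibroblast markers *Fbln1* was at 7.61 and 6.14 CPM, from 7 and 4 UMIs.

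*Fbln2*, which binds elastin precursor and fibrillin, was high in 3 types and low in the other 2. It had 1305 and 1285 CPM in the endothelium, 1055 and 1295 CPM in fibroblasts, 812 and 997 CPM in mesothelial cells, 17.0 and 20.1 CPM in SMCs, and 10.4 and 18.6 CPM in immune cells. Fibroblasts overlapped with endothelial cells (fibroblast minus endothelial -0.02, SE 0.15, adjusted p = 0.948). They exceeded mesothelial cells by 0.52 (SE 0.15, adjusted p = 0.0117), a call that was lost when sums were scaled to total UMIs (0.38, adjusted p = 0.0565). SMCs lay 5.86 below fibroblasts (SMC minus fibroblast -5.86, SE 0.19, adjusted p = 4.11e-13). They were not called above immune cells (0.47, SE 0.21, adjusted p = 0.0515) unless the aorta was added to the model as a replicate block, which pairs the types of the same animal (0.48, adjusted p = 0.00891).

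*Fbln5*, a fibulin required for elastic fiber assembly in the aorta, was shared by 3 types. Its level was 1247 and 1432 CPM in the endothelium, 973 and 1005 CPM in fibroblasts, 655 and 779 CPM in SMCs, 292 and 337 CPM in mesothelial cells, and 25.9 and 36.0 CPM in immune cells. No 2 types overlapped, but the upper steps were small. Fibroblasts were lower than endothelial cells by 0.31 (fibroblast minus endothelial -0.31, SE 0.12, adjusted p = 0.0437) and higher than SMCs by 0.34 (SMC minus fibroblast -0.34, SE 0.12, adjusted p = 0.0255). The latter difference was no longer called without aorta 1 (-0.26, adjusted p = 0.264) or without aorta 2 (-0.40, adjusted p = 0.0757). SMCs exceeded mesothelial cells by 1.46 (SE 0.13, adjusted p = 1.10e-07). In the marker-free cells *Fbln5* was lower in each of these types. It was at 820 and 933 CPM in endothelial cells and 763 and 865 CPM in fibroblasts with no UMI of the 8 SMC markers, and at 372 and 442 CPM in SMCs with no UMI of the 8 fibroblast markers.

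*Efemp2*, the fibulin that recruits lysyl oxidase to elastin, had 166 and 183 CPM in fibroblasts, 103 and 107 CPM in SMCs, 54.7 and 60.5 CPM in mesothelial cells, 18.2 and 19.4 CPM in the endothelium, and 10.2 and 11.5 CPM in immune cells. The types kept this order without overlap. SMCs were below fibroblasts by 0.60 (SMC minus fibroblast -0.60, SE 0.08, adjusted p = 1.15e-05), and each other step also passed the test (0.61 to 1.59 in size).

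*Mfap4* and *Mfap5* were highest in fibroblasts, whereas *Mfap2* was highest in fibroblasts of aorta 1 and in mesothelial cells of aorta 2. *Mfap2*, whose small glycoprotein MAGP-1 binds fibrillin, had 129 and 122 CPM in fibroblasts, 66.9 and 252 CPM in mesothelial cells, 31.4 and 38.2 CPM in SMCs, 20.1 and 15.8 CPM in the endothelium, and 1.11 and 1.86 CPM in immune cells. The mesothelial cells of the 2 aortas stood on either side of the fibroblasts, and the difference between the types was -0.07 (fibroblast minus mesothelial, SE 0.32, adjusted p = 0.899). SMCs were lower than fibroblasts by 1.72 on the log2 scale (SMC minus fibroblast -1.72, SE 0.28, adjusted p = 7.92e-05).

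*Mfap4*, which binds elastin and fibrillin and directs fiber organization, was expressed in fibroblasts and SMCs, with little elsewhere. It had 1790 and 1546 CPM in fibroblasts and 915 and 928 CPM in SMCs, against 33.6 and 32.1 CPM in immune cells, 32.9 and 18.6 CPM in the endothelium, and 18.2 and 21.8 CPM in the mesothelium. Endothelial cells overlapped with both of the others, whereas mesothelial cells lay below immune cells in both aortas. SMCs lay below fibroblasts (-0.73, SE 0.13, adjusted p = 0.000125) and above immune cells (4.87, SE 0.15, adjusted p = 1.27e-13). In the 186 and 214 fibroblasts with no UMI of the SMC markers, *Mfap4* was lower, at 1082 and 1028 CPM, and *Eln* was at 885 and 840 CPM.

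*Mfap5*, encoding MAGP-2, a second microfibril glycoprotein of that family, had 1780 and 2498 CPM in fibroblasts, 764 and 893 CPM in SMCs, 322 and 350 CPM in the endothelium, 65.8 and 60.5 CPM in mesothelial cells, and 24.8 and 50.7 CPM in immune cells. The aortas of these types did not overlap. SMCs were lower than fibroblasts (-1.24, SE 0.20, adjusted p = 5.80e-05) and higher than endothelial cells (1.56, SE 0.21, adjusted p = 8.50e-06). Mesothelial cells were not called above immune cells (0.59, SE 0.28, adjusted p = 0.0869), except with the aorta as a replicate block (0.66, adjusted p = 0.0105) or with scaling to total UMIs (0.80, adjusted p = 0.0235).

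**Figure D1:**
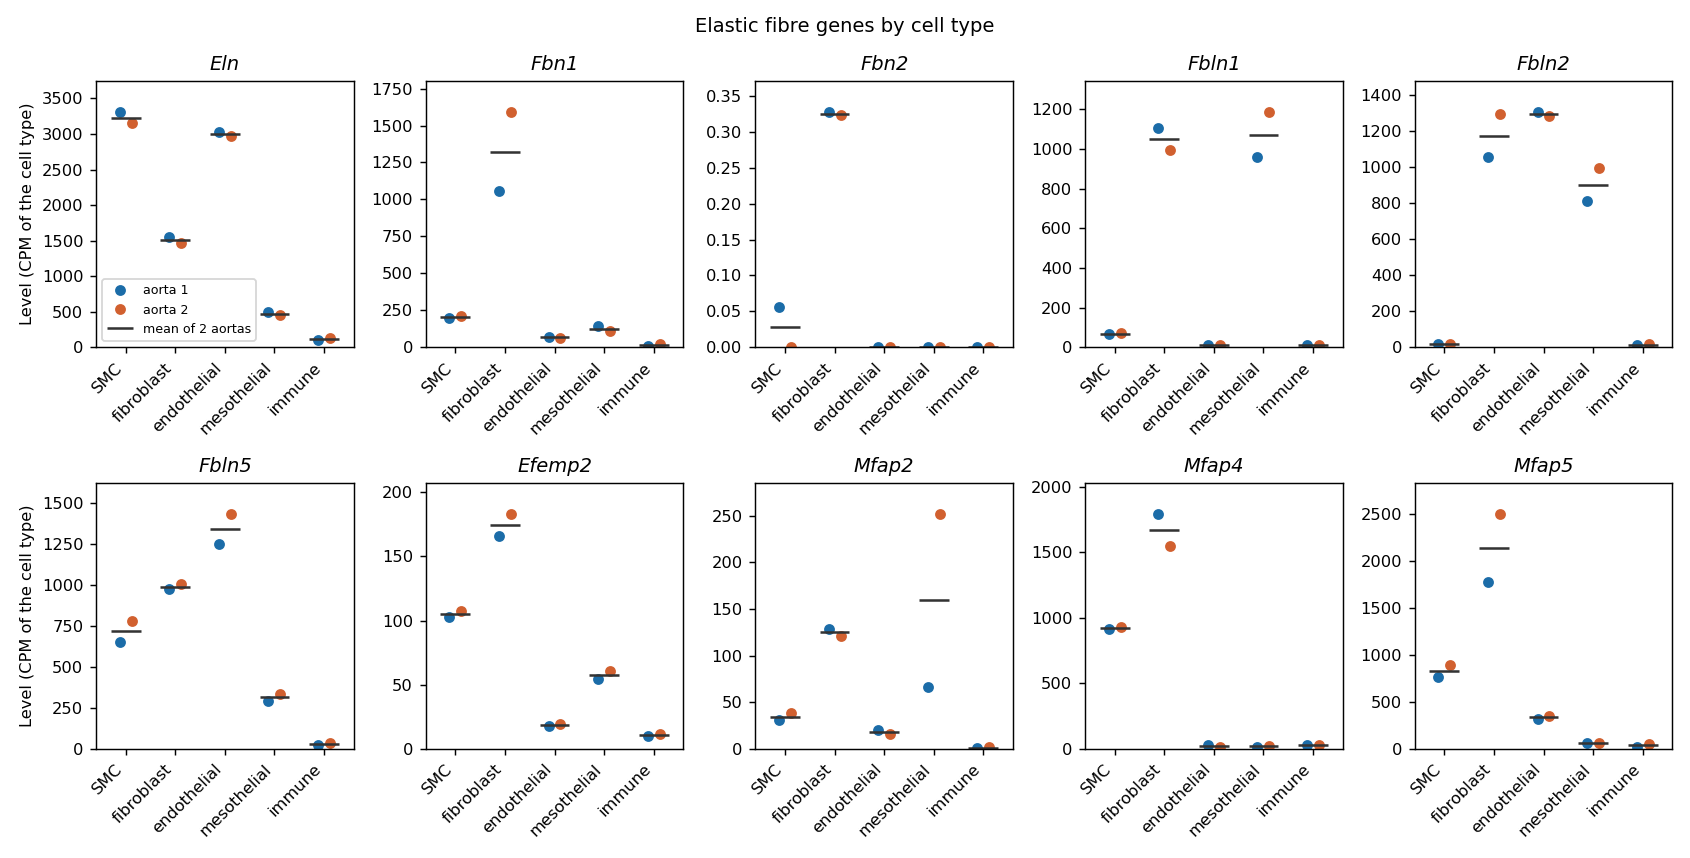
Levels of the 10 elastic fiber genes in the 5 cell types of 2 wild-type aortas, in CPM (UMIs of the gene per 1000000 UMIs of the type) on linear axes that start at 0 and differ between panels. Points are the 2 aortas and bars their mean; *Eln* is highest in SMCs (3307 and 3157 CPM) and *Fbn1* in fibroblasts (1055 and 1589 CPM), whereas *Fbn2* is under 1 CPM in every type.

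Read as counts, SMCs had 1 of the 9 tested members above fibroblasts (*Eln*) and 8 below. Among 14645 genes tested, 28.0% were higher in SMCs and 27.4% were higher in fibroblasts. Fibroblasts were above immune cells for all 9 tested members (background 34.6%). Against endothelial cells, fibroblasts were higher for 6 members and lower for 2, *Eln* and *Fbln5* (backgrounds 24.0% and 21.7%). Against mesothelial cells they were higher for 7 and lower for 0 (backgrounds 20.4% and 18.4%), with *Fbln1* and *Mfap2* not called. Of all genes called between those types, 52.5% were higher in fibroblasts with TMM and 42.2% with scaling to total UMIs.

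SMCs exceeded endothelial cells for 7 of the 9 tested members and were below them for *Fbln2* and *Fbln5* (backgrounds 29.2% and 24.8%). Of all genes called in that comparison, 54.0% were higher in SMCs with TMM scaling and 38.1% with scaling to total UMIs, under which *Eln* and *Mfap2* (0.93, adjusted p = 0.0753) were no longer called. SMCs exceeded immune cells for 8 members (background 37.9%), all but *Fbln2*. Endothelial cells exceeded immune cells for 7 members (background 28.8%) and were lower for *Mfap4* (-0.52, SE 0.18, adjusted p = 0.0248; -0.33, adjusted p = 0.140, with scaling to total UMIs). Mesothelial cells also exceeded immune cells for 7 members (background 28.2%) and were lower for *Mfap4* (-0.96, SE 0.24, adjusted p = 0.00259).

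The cell type with the highest level was not always the one in which most transcripts were counted, as SMCs held 43.0% and 44.8% of all UMIs. They supplied 69.4% of the *Eln* UMIs in aorta 1 (69.1 to 69.7, exact binomial 95% interval) and 68.8% in aorta 2 (68.4 to 69.2), fibroblasts a mean of 16.5%, and endothelial cells 11.5% and 13.2%. *Fbln5* was higher per RNA in fibroblasts and endothelial cells, yet 45.8% and 48.2% of its UMIs were from SMCs. For *Efemp2* the SMC share was 50.6% and 50.3%, beside 42.3% and 43.1% from fibroblasts. *Mfap4* was divided between SMCs (48.9% and 54.0%) and fibroblasts (49.7% and 44.9%), and which of the 2 was larger differed between aortas.

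Fibroblasts, which held 22.3% and 22.4% of all UMIs, were the main source of the other members. They held 70.2% and 76.4% of the *Fbn1* UMIs, 76.9% and 74.3% of those of *Fbln1*, 61.6% and 63.5% of those of *Fbln2*, 61.1% and 49.2% of those of *Mfap2*, and 52.2% and 55.7% of those of *Mfap5*. Endothelial cells, which made up 12.0% and 15.8% of cells and held 7.76% and 9.15% of all UMIs, held 26.5% and 25.7% of *Fbln2*. Mesothelial cells held 13.2% and 14.4% of *Fbln1*. All these shares are of cells recovered by digestion and sorting.

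**Figure D2:**
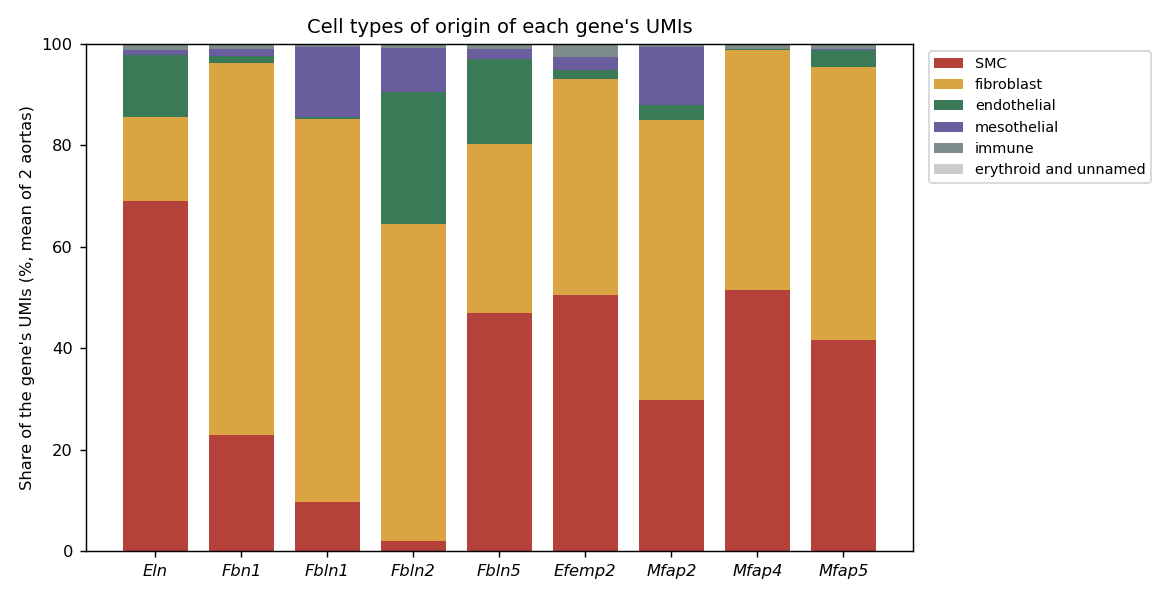
Share of each gene's UMIs found in each cell type (%, mean of 2 aortas, stacked to 100). The SMC part is largest for *Eln* (mean 69.1%) and smallest for *Fbln2* (1.94%).

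The share of cells with at least 1 UMI was compared after each cell was thinned to 1000 UMIs, since median depth was 7559 and 7391 UMIs in SMCs but 4927 and 4654 in immune cells. An *Eln* UMI was found in 80.4% and 78.7% of SMCs, 82.3% and 76.4% of endothelial cells, 49.7% and 47.5% of fibroblasts, and 34.7% and 36.7% of mesothelial cells. Immune cells had the lowest shares, 6.16% and 4.40%. Without thinning the means were 92.9% in SMCs, 90.3% in endothelial cells and 17.4% in immune cells.

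Some shares were low and close to those of immune cells. *Fbln2* was found in 1.54% (exact 95% interval 1.09 to 2.12) and 2.12% (1.5 to 2.91) of SMCs and in 1.18% (0.70 to 1.86) and 1.39% (0.74 to 2.37) of immune cells, higher in SMCs of both aortas but with overlapping intervals. *Mfap4* was found in 2.29% and 1.92% of endothelial cells and 2.23% and 2.04% of immune cells. In fibroblasts *Mfap5* reached 67.3% and 76.3%, the highest of the 5 types, and SMCs had 39.1% and 43.4%. *Eln* was the single member found in a larger mean share of SMCs than of fibroblasts.

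The other genes of elastic fiber assembly and turnover were examined as 4 lists. All 6 genes of elastin cross-linking, *Lox*, *Loxl1*, *Loxl2*, *Loxl3*, *Loxl4* (lysyl oxidases) and *Atp7a* (which supplies their copper), were lower in SMCs than in fibroblasts, with a median of -1.26 on the log2 scale against 0.0 for all genes. *Lox* was at 151 and 150 CPM in SMCs and 330 and 327 CPM in fibroblasts (-0.996, SE 0.11, adjusted p = 1.33e-06), and was singled out after its values were seen. Among 16 tested genes for accessory proteins and latent TGF-β binding proteins, 10 were lower in SMCs, 2 were higher and 4 were not called, with a median of -1.23. Of 7 tested elastin-degrading enzymes, 5 were lower and 1 was higher in SMCs, with a median of -1.55. The higher one was *Mmp9*, counted 23 and 12 times in SMCs and 4 and 0 times in fibroblasts, and named after its values were seen. Immune cells had 57.6 and 62.2 CPM of it, beside 1.30 and 0.97 CPM in SMCs. Of 9 receptor genes, 4 were higher in SMCs, 2 were lower and 3 were not called, with a median of -0.09. In all, 7 of 38 tested genes were higher in SMCs and 23 were higher in fibroblasts, beside the backgrounds of 28.0% and 27.4%.

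The 7 genes that were higher in SMCs comprised 4 integrin subunits, *Thsd4*, *Ltbp1* and *Mmp9*. *Itga8*, the integrin α8 subunit, had 1531 and 1559 CPM in SMCs and 71.7 and 68.8 CPM in fibroblasts (4.59, SE 0.10, adjusted p = 1.90e-14). *Itgb3* (2.28), *Itga5* (1.94) and *Itgb1* (1.72), which encode further integrin subunits that bind fibrillin, fibronectin or fibulin-5, were higher too. *Thsd4*, whose product ADAMTSL6 binds fibrillin-1 and promotes microfibril assembly, had 186 and 201 CPM in SMCs and 9.59 and 6.94 CPM in fibroblasts (4.64, SE 0.13, adjusted p = 1.08e-13). *Ltbp1*, encoding a latent TGF-β binding protein, was higher by 0.88 (SE 0.13, adjusted p = 3.59e-05). In the opposite direction the genes with the largest differences were *Emilin2* (SMC minus fibroblast -7.06), *Fbln7* (-4.48), *Hmcn1* (-4.39), *Efemp1* (-4.37), *Adamtsl2* (-4.24) and *Mmp2* (-3.87). *Hmcn1* rested on 7 and 2 UMIs in SMCs.

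The elastin level of endothelial cells came from 2 of the 4 endothelial clusters. Cluster 4, led by *Isl1*, *Emcn* and *Bmp6* (886 cells), had 3336 and 3303 CPM of *Eln*, and cluster 8, led by *Adra2a*, *Sema3g* and *Igf2* (417 cells), had 3301 and 3563 CPM. The other two, cluster 16 with the lymphatic markers *Ccl21a* and *Prox1* (123 cells) and cluster 21 led by *Gpihbp1* and *Tcf15* (89 cells), had 462 and 445 CPM and 268 and 483 CPM. *Fbln2* followed the same division, with 1498 and 1508 CPM in cluster 4, 1218 and 1257 CPM in cluster 8, 378 and 418 CPM in cluster 16, and 350 and 348 CPM in cluster 21. *Fbln5* was highest in cluster 8 (1952 and 2596 CPM), ahead of cluster 4 (1086 and 1212 CPM), and was at 193 CPM or less in the other two. *Mfap5* was highest in cluster 4 (408 and 479 CPM) and lower in cluster 8 (208 and 188 CPM).

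The summed level of the 8 SMC markers was 1286 and 1330 CPM in cluster 4, 1539 and 957 CPM in cluster 8, 2552 and 867 CPM in cluster 16, and 769 and 589 CPM in cluster 21. *Eln* in all endothelial cells was at 91.8% and 94.1% of its SMC level, whereas the single SMC markers were there at 0.88% to 8.10% of theirs in aorta 1 and 1.28% to 9.33% in aorta 2. In immune cells, by contrast, *Eln* was at 2.92% and 3.93% of its SMC level, within the range of the SMC markers there (1.35% to 3.01% and 1.65% to 6.36%). In mesothelial cells *Eln* was at 14.9% and 14.5% of its SMC level. The median of the SMC markers there was 2.07% and 1.34%, and only *Des*, from 36 and 19 UMIs, was above *Eln* (18.7% and 34.0%).

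**Figure D3:**
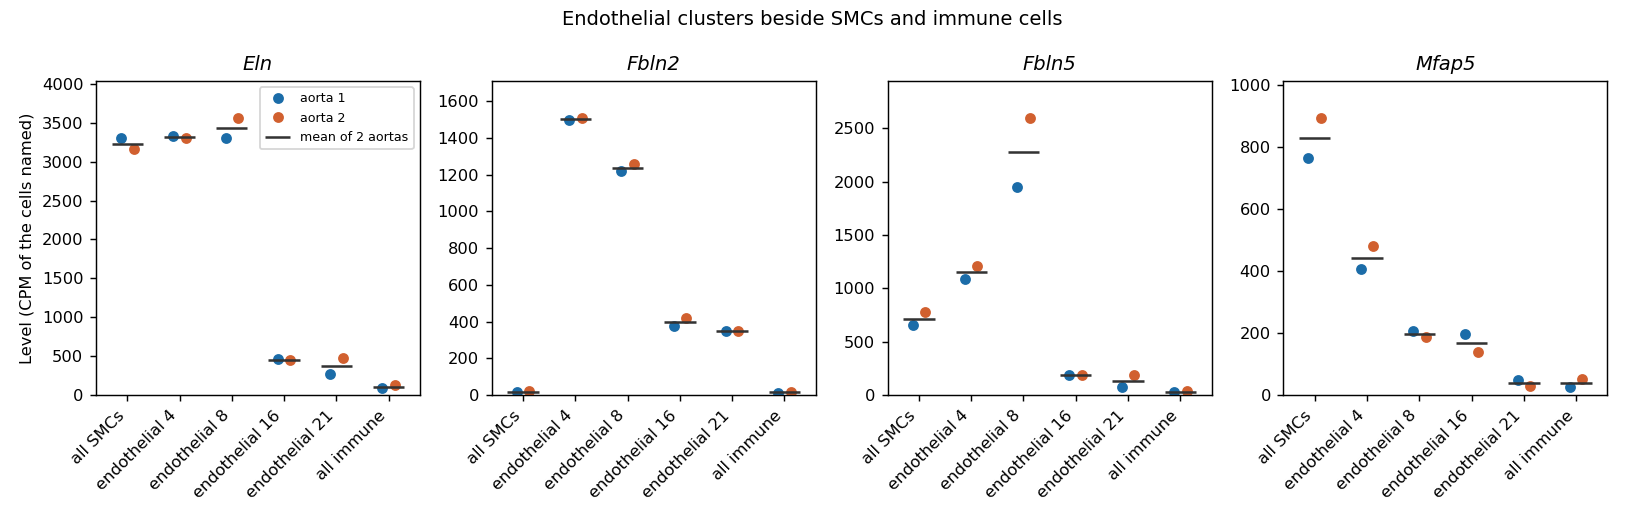
Levels of *Eln*, *Fbln2*, *Fbln5* and *Mfap5* (CPM, linear axes from 0) in all SMCs, the 4 endothelial clusters and all immune cells. Points are the 2 aortas and bars their mean; *Eln* lies at 3301 to 3563 CPM in clusters 4 and 8 and at 268 to 483 CPM in clusters 16 and 21.

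SMCs were then divided into subsets, again without use of the elastic fiber genes. Of 9 subsets, 8 had at least 10 cells in each aorta. Because these subsets were drawn from other genes of the same cells, levels in them are given as a description. Over the 8 subsets, 8 of the 9 tested members differed by the edgeR F test with over 1 log2 unit between the highest and lowest subset, beside 50.6% of the 9782 genes tested. The exception was *Efemp2*, whose range was 0.97 (adjusted p = 0.000422).

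In SMC subset 1, 8 of the 9 members were above the average of the other subsets, as were 59.6% of the 9782 genes tested there. All 9 were above it in subset 4, whose leading genes include fibroblast markers. Subset 1 was led by *Adamtsl1*, *Hhip*, *Stk32a*, *Gng2* and *Lrrtm3* and comprised 490 and 410 cells. *Eln* was at 5312 and 5515 CPM there, against 2725 and 2358 CPM in subset 0 and 3216 and 2597 CPM in subset 2, which are the other large subsets with deep cells (medians of 7326 UMIs in subset 1, 9436 in subset 0 and 10103 in subset 2). *Mfap5* was at 2121 and 2202 CPM against 394 and 557 CPM in subset 0 and 406 and 407 CPM in subset 2. *Fbln5* was at 1554 and 1717 CPM against 460 and 520 CPM and 352 and 415 CPM. Neither *Mfap5* nor *Fbln5* overlapped with any other subset in either aorta.

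The remaining members were also above that average in subset 1, with *Fbln2* as the exception. *Fbln1* was at 227 and 222 CPM, while it was at 9.74 CPM or less in subsets 0, 2 and 3 and matched only by subset 4 (247 and 223 CPM). *Mfap2* was at 88.1 and 95.9 CPM, *Efemp2* at 146 and 142 CPM, *Mfap4* at 1064 and 1193 CPM, and *Fbn1* at 290 and 304 CPM. Relative to the average of the other subsets, the log2 differences were 3.83 for *Fbln1*, 2.60 for *Mfap5*, 1.96 for *Mfap2*, 1.83 for *Fbln5*, 1.20 for *Eln*, 0.88 for *Mfap4*, 0.61 for *Fbn1*, 0.54 for *Efemp2* and -1.86 for *Fbln2*. Higher genes include the 4 whose upstream bases are printed above. Neither of the marked motifs occurs in all 4, and a link between motifs and levels was not tested.

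Other markers moved with this subset. The summed SMC markers were at 23709 and 25342 CPM in subset 1 and at 45752 to 48444 CPM in subsets 0 and 2, and the 8 fibroblast markers were at 1073 CPM in both aortas against 549 to 655 CPM. In the 24 and 15 cells of subset 1 that had no fibroblast marker UMI, *Eln* was at 3799 and 3585 CPM, *Fbln5* at 995 and 1449 CPM, *Mfap5* at 1132 and 1488 CPM and *Mfap2* at 94.3 and 90.6 CPM. *Mfap4* was at 360 and 375 CPM in them, below the 591 and 608 CPM of all SMCs chosen by the same filter. Those SMCs were shallower, with medians of 1847 and 2038 UMIs against 5082.5 and 5539 in the subset 1 cells. The groups are therefore unlike, and no direction is drawn from them. *Fbln1* was at 42.9 and 25.9 CPM in the subset 1 cells without fibroblast markers, from 5 and 2 UMIs. The part of fibroblast RNA in these levels was not tested.

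SMC subset 6 showed the reverse, with all 9 members below the average of the other subsets, beside 47.9% of all genes. It was led by *Gm37800*, *Gprc5c*, *Kcna5*, *Pln* and *Pgf* and comprised 64 and 50 cells, whose SMC markers were at 47387 and 45458 CPM. *Mfap4* was at 27.6 and 34.1 CPM, from 14 and 13 UMIs, where every other subset had at least 590 CPM. *Mfap5* was at 51.3 and 55.2 CPM, against at least 214 CPM elsewhere. *Eln* was nearer to the other subsets, at 2053 and 1841 CPM. The largest differences from the other subsets were -4.91 for *Mfap4* and -3.35 for *Mfap5*, and the smallest was -0.33 for *Eln*.

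In subset 4 (163 and 106 cells) all 9 members were above the average of the other subsets, beside 55.4% of all genes, with differences from 0.04 for *Eln* to 3.98 for *Fbln1*. It held 4 fibroblast markers among its 10 leading genes and 7001 and 8271 CPM of fibroblast markers beside 21702 and 21832 CPM of SMC markers, and it had the highest *Fbln2* of any SMC subset, at 130 and 210 CPM. Subset 7, led by *Mme*, *Angptl1* and *Grem1* (19 and 33 cells), had the lowest *Eln*, at 980 and 333 CPM, beside *Mfap2* at 154 and 76.2 CPM and *Mfap4* at 931 and 1214 CPM. Its fibroblast markers were at 6119 and 4361 CPM. Subset 5, with a median of 1858 UMIs per cell, had *Eln* at 3534 and 5945 CPM, so that the aortas differed by more than most subsets did. Subset 3, with a median of 1785 UMIs, had *Eln* at 1694 and 1633 CPM and *Mfap4* at 1047 and 976 CPM. Leaving subset 3 or subset 4 out of the SMCs did not change a call between SMCs and fibroblasts.

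**Figure D4:**
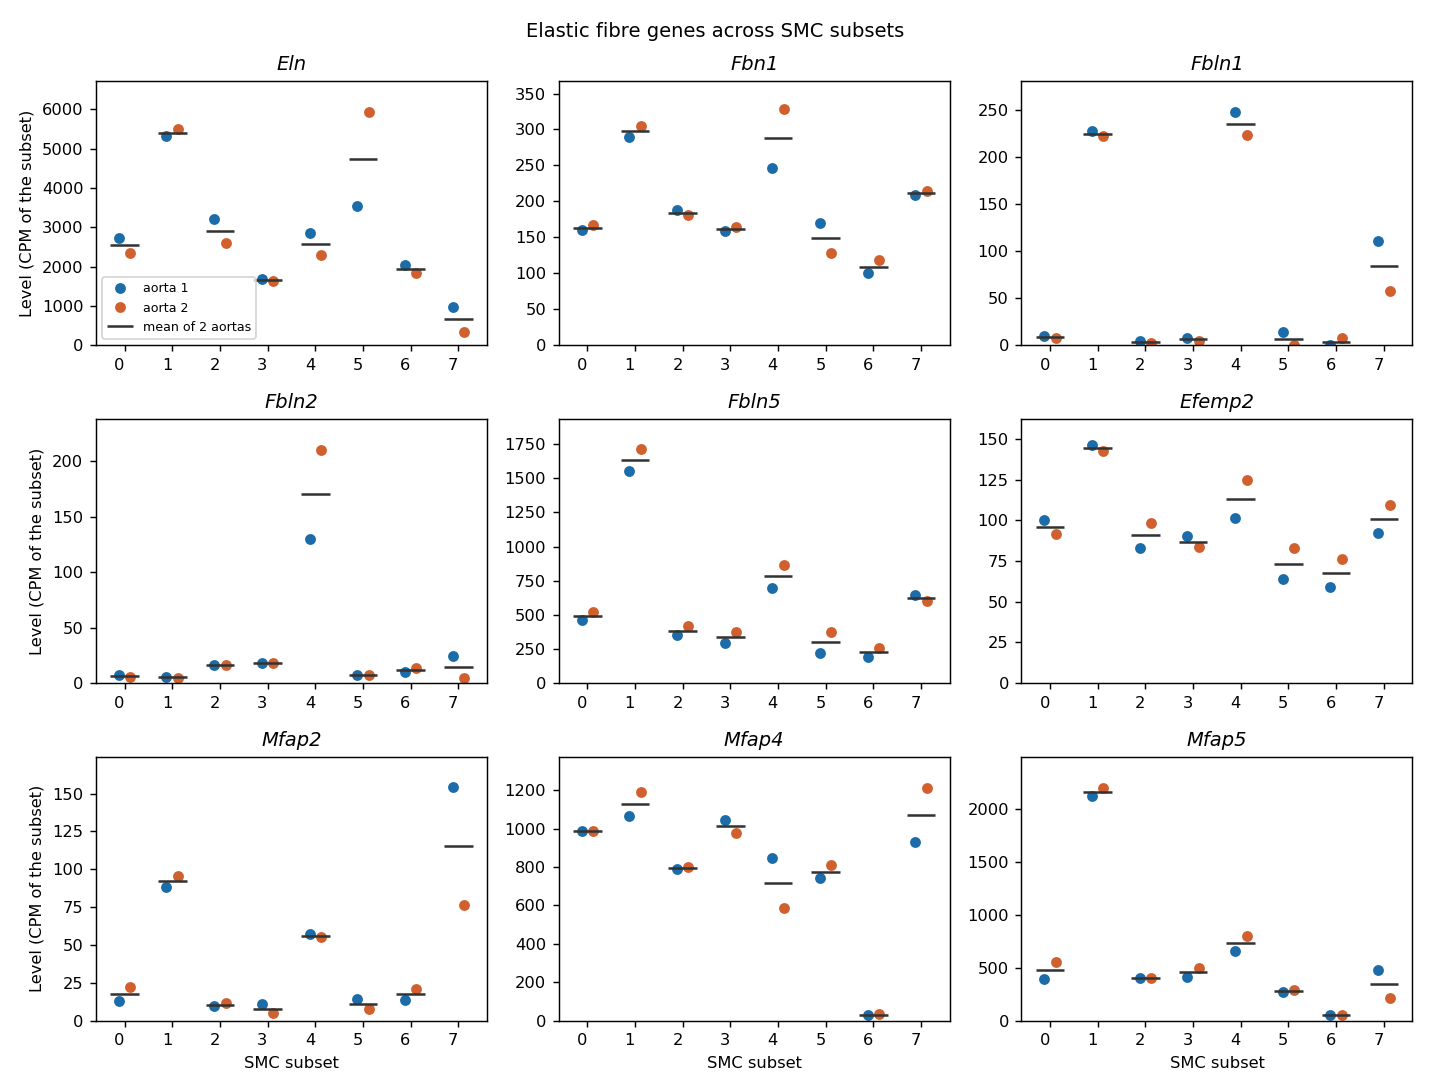
Levels of 9 elastic fiber genes (CPM, linear axes from 0) in the 8 SMC subsets with at least 10 cells in each aorta. Points are the 2 aortas and bars their mean; subset 1 has the highest mean for *Eln*, *Fbn1*, *Fbln5*, *Efemp2*, *Mfap4* and *Mfap5*, and subset 6 has *Mfap4* at 27.6 and 34.1 CPM.

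Fibroblast subsets also differed in the members, and the subset with the highest *Fbn1* and *Mfap5* had the lowest *Mfap4*. All 9 tested members differed among the 7 fibroblast subsets by the same criterion, beside 30% of all genes tested (3217 of 10721). *Eln* was highest in subset 0, led by *Fmod*, *Pax1*, *Lrrn1*, *Vegfd* and *Ccn5* (2626 and 3044 CPM, 411 and 289 cells), and in subset 3, led by *Lamc3*, *Cytl1*, *Dapk2*, *Heyl* and *Unc5b* (2649 and 3165 CPM, 200 and 78 cells). All 4 values lie below the SMC mean of 3232 CPM and above the fibroblast mean of 1513 CPM, while the summed SMC markers of these subsets were at 456 to 1284 CPM. *Mfap4* was also high in both, at 2785 and 2904 CPM in subset 0 and 2160 and 2303 CPM in subset 3. *Fbn1* was low in them, at 577 and 669 CPM and at 616 and 764 CPM.

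Subset 2 had the opposite makeup. It was led by *Pla1a*, *Dact2*, *Aif1l*, *Car8* and *Dpp4* and comprised 250 and 273 cells. *Fbn1* was at 2768 and 3193 CPM, *Mfap5* at 3830 and 4786 CPM and *Fbln2* at 2133 and 2054 CPM, each above both aortas of every other fibroblast subset. *Eln* was at 564 and 378 CPM and *Mfap4* at 469 and 366 CPM, the latter below every other subset. On the log2 scale *Fbn1* lay 2.09, *Fbln2* 1.77 and *Mfap5* 1.76 above the average of the other subsets, with *Mfap4* at -2.20 and *Eln* at -1.59.

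The remaining fibroblast subsets stood out in other ways. Subset 4, led by *Igfbp3*, *Lepr*, *Epyc*, *Tcf21* and *Sfrp1* (138 and 60 cells), had the highest *Fbln1*, at 2004 and 1963 CPM. Subset 5, led by *Chrm2*, *Mab21l2*, *Tfap2b*, *Apobec2* and *Faim2* (81 and 21 cells), had the highest *Mfap2*, at 331 and 340 CPM. The same subset was lowest for *Fbn1* (329 and 358 CPM), *Fbln1* (mean 399 CPM), *Fbln2* (235 and 136 CPM), *Fbln5* (262 and 309 CPM), *Efemp2* (86.1 and 98.9 CPM) and *Mfap5* (587 and 840 CPM). Subset 1, led by *Kitl*, *Ralgps2*, *Comp*, *Hmcn2* and *Sparcl1* (354 and 270 cells), had the highest mean *Efemp2* (210 CPM), which overlapped with the next subset. It was neither highest nor lowest for the other tested members, with *Fbln2* at 1541 and 1621 CPM. Subset 6 (30 and 19 cells) was led by the immune markers *C1qa* and *Fcer1g* among others, and its SMC markers were at 6656 and 6949 CPM.

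**Figure D5:**
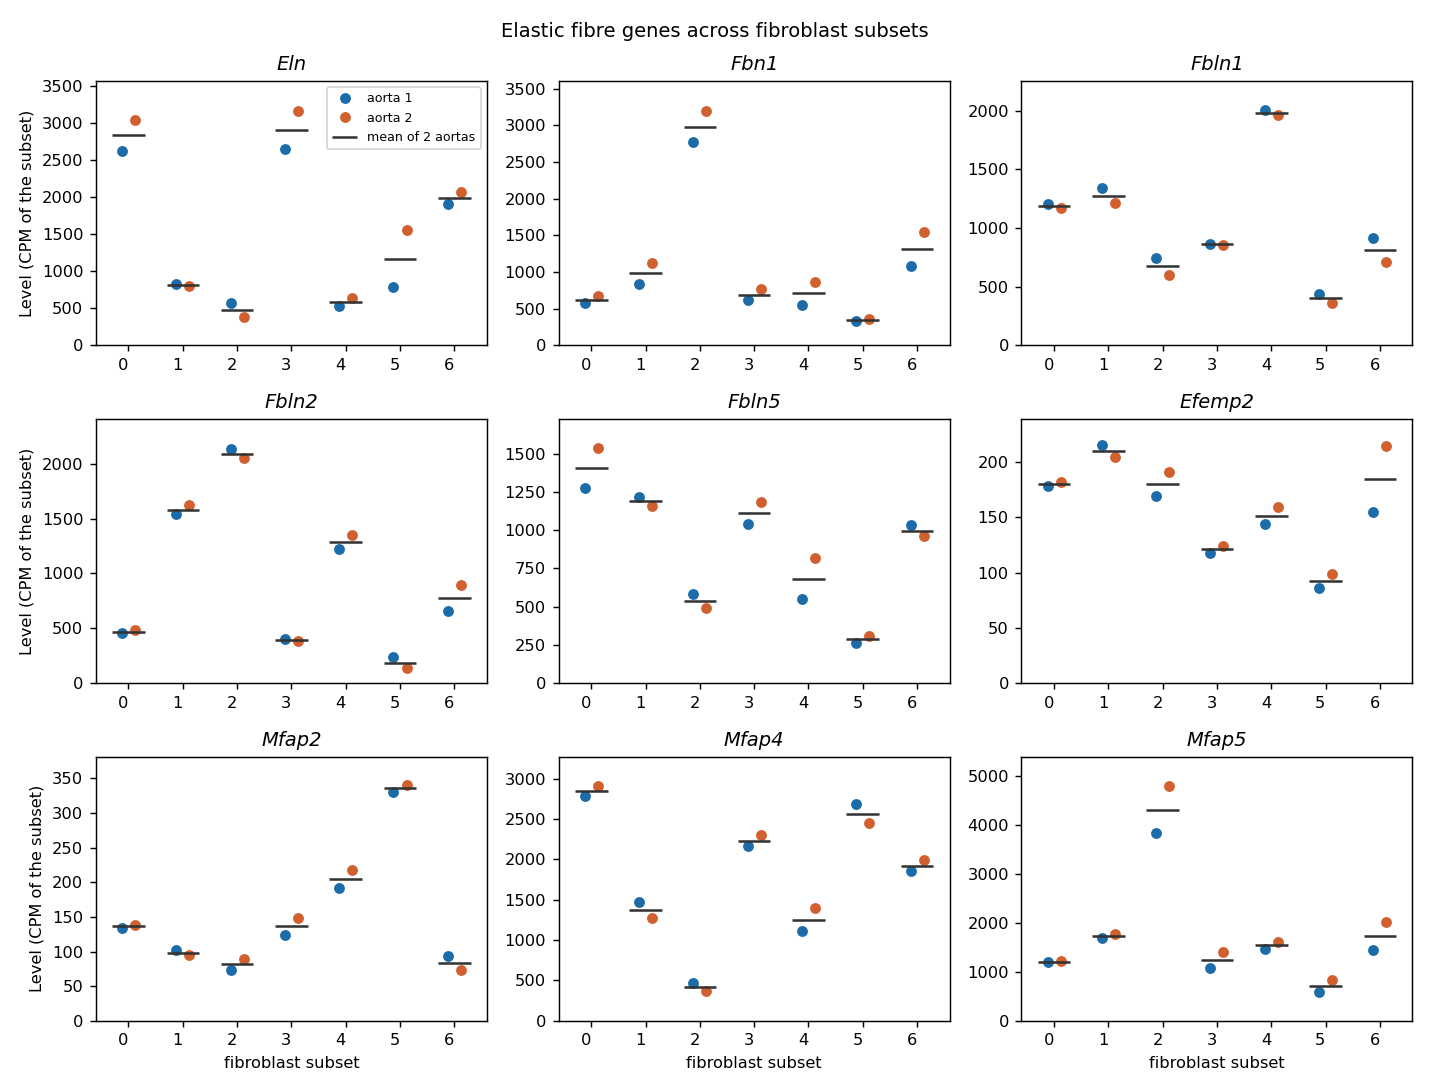
Levels of 9 elastic fiber genes (CPM, linear axes from 0) in the 7 fibroblast subsets. Points are the 2 aortas and bars their mean; subset 2 is highest for *Fbn1*, *Fbln2* and *Mfap5* and lowest for *Mfap4*, and subset 5 is highest for *Mfap2*.

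Over the 14 points formed by fibroblast subsets and aortas, log2(CPM + 1) of *Fbn1* and *Mfap5* had a Pearson correlation of 0.96, *Eln* and *Mfap4* one of 0.79, and *Mfap4* and *Mfap5* one of -0.88. The correlation of *Eln* was weaker with *Fbn1* (-0.39) and with *Mfap5* (-0.48). Over the 16 points of SMC subsets, *Mfap4* and *Mfap5* had 0.79 and *Fbn1* and *Mfap5* 0.84, while *Eln* was at 0.39 or less with each of the other 8. Points of 1 aorta share a library and the scaling to its total, and the values describe these cells only.

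Genes most alike in pattern to each member were sought over 56 points (the 28 clusters with at least 10 cells in each aorta, 1 of them unnamed, in 2 aortas) among 12026 genes. *Eln* was closest to *Bgn* (r = 0.94), *Foxc1* and *Emp2*. *Fbln5* was closest to *Bgn* (r = 0.93), *Eln* and *Col5a2*. *Fbn1* came nearest to *Adamtsl3* (r = 0.88), *Rbms3* and *Col1a2*, and *Mfap5* to *Col5a1* (r = 0.86), *Fbn1* and *Fstl1*. *Fbln1* was closest to *Smoc2* (r = 0.93), *Wnt5a* and *Bicc1*, and *Fbln2* to *Ackr3* (r = 0.86), *Fndc1* and the fibroblast marker *Clec3b*. *Efemp2* was closest to *Rcn3* (r = 0.88), *Myh10* and *Sh3d19*, *Mfap2* to *Lrig3* (r = 0.89), *Ces2g* and *Evc2*, and *Mfap4* to *Abcc9* (r = 0.92), *2810433D01Rik* and *Crispld2*. *Eln* and *Fbln5* were the pair of members with the highest correlation (r = 0.90), followed by *Fbn1* and *Mfap5* (r = 0.86).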

How the data were processed

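The authors deposited raw UMI counts for each gene in each cell, made with Cell Ranger from mm10 with reporter sequences added, and named Seurat 4.0 in their processing notes. Cells with 1000 to 25000 UMIs, over 200 genes and a mitochondrial share under 10% were kept, and Scrublet doublets (205 and 84) were removed. The filter left 6744 and 4698 of the 8947 and 6263 barcodes before doublets were removed, where the labels state 6278 and 4300. Python 3.11.15 with scanpy 1.11.5 (2000 variable genes, 30 components, 15 neighbors, Leiden resolution 1, 0.5 for subsets) gave the clusters. A cluster name required at least 3 markers found in 25% of cells and fewer than 2 markers of another class among 10 leading genes. Subsets kept the type of their clusters, whatever their own leading genes, and SMC subset 4 and fibroblast subset 6 were led by markers of other classes.

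UMIs of the 5 cell types were summed per aorta, since cells are not replicates, and entered 1 edgeR 4.0.16 model (R 4.3.3, quasi-likelihood test, TMM scaling, filterByExpr). The p-values were adjusted by Benjamini-Hochberg over all 14645 genes, and a gene was called at an adjusted p under 0.05. Each library holds 1 aorta, so the spread is that of 2 animals. Subsets were tested likewise. Correlations of aorta differences between types were -0.0042 to 0.22; types are paired because they come from the same animal. Scripts were tested on simulated data.

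All 10 members are named. Pathway genes were named if called with at least 20 UMIs in the higher type in each aorta, at most 6 in each direction. The members and lists were chosen with earlier results of these data known. Alternatives included DESeq2 1.42.0. No coordinates were converted between builds.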

Additional observations from a re-analysis of the deposited data

How the results depend on the processing

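Counts of members and pathway genes called between SMCs and fibroblasts kept to within 1.5 times of the values reported under every alternative cell filter, clustering resolution, scaling, gene filter and tool run, except where an absolute log2 fold change over 1 was required too. Then 5 members were called higher in fibroblasts (not *Fbln5*, *Efemp2* and *Mfap4*), and of all genes 1722 were higher in SMCs and 2222 in fibroblasts. Without thinning, 2 members instead of 1 were found in a larger share of SMCs than of fibroblasts, *Mfap4* being added. With 1 aorta left out at a time, members higher in fibroblasts numbered 7 and 7, those higher in SMCs 1 and 1, pathway genes 22 and 22 higher in fibroblasts and 6 to 7 in SMCs, all genes 2790 to 2914 and 2903 to 3121, respectively, and members with the larger UMI share from SMCs 3 to 4. Those fits rest on 1 aorta for SMCs and fibroblasts, with the spread taken from the other types; for subsets no such fit could be tested.

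With the aorta as a replicate block, SMCs and fibroblasts differed for the same numbers of members, 1 and 8, and 8 and 9 members differed among SMC and fibroblast subsets, as they did without the subsets led by markers of another class. Over the other 9 pairs of types 74 calls became 76 with the block and 71 with scaling to total UMIs. The block added *Fbln2* (SMCs above immune cells) and *Mfap5* (mesothelial above immune cells) and changed no other call of a member. Scaling to total UMIs and leaving out cells with other markers were chosen after seeing the data. The former reversed 2 differences that were not called either way, *Fbln1* between fibroblasts and mesothelial cells (-0.024) and between endothelial and immune cells (0.15). It also put the median of all genes at -0.13 between SMCs and fibroblasts and -0.16 between SMCs and mesothelial cells, where the share of calls higher in SMCs went from 54.5% to 37.1%.

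The share of *Eln* UMIs from SMCs ranged from 66.8% to 75.6% over the alternatives, highest with a minimum of 5000 UMIs per cell. *Fbn2* rests on 6 UMIs, too few for a comparison, and *Mfap2* in immune cells rests on 10 UMIs in each aorta. The 2 aortas limit the precision of every p-value.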
